A study of Mus musculus with 4 samples.

Results

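The 37 genes described here encode proteins that build the large (60S) ribosomal subunit, together with subunits of RNA polymerase I, proteins of the H/ACA class of small nucleolar ribonucleoproteins (snoRNPs) and scaffold proteins of the nucleolus. They were chosen by gene symbol, and each of the 37 had 1 row among the 27115 genes of the deposited table. The table came from RNA sequencing of 4 libraries made from mouse embryos at the 2-cell stage, grown in vitro to day 2. The control group held 2 libraries of WT genotype, and the overexpressing group held 2 libraries of Trim75 OE genotype, Trim75 being a gene of the tripartite motif family. The mouse strain, the way Trim75 was overexpressed, the treatment of control embryos and the number of embryos pooled were not given in the labels. Titles of the control libraries alone carry the tag L2C, so a difference in stage, if the tag means one, cannot be told apart from the genotype. Library codes in the titles also run in a separate series for each group. A batch, if these codes mark one, cannot be told apart from the genotype either. Separate cultures or pools of embryos were not stated either, so each p-value reflects library-to-library spread that may be technical.

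A ribosome begins as a long precursor RNA that RNA polymerase I transcribes inside the nucleolus. That precursor is modified by snoRNPs, among which the H/ACA class converts chosen uridines to pseudouridine, and it is cut and folded while assembly factors, helicases and GTPases come and go. The pre-60S particle is then exported to the cytoplasm. In the mouse, the first embryonic nuclei hold dense nucleolus precursor bodies, and synthesis of ribosomal RNA resumes around the 2-cell stage.

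Libraries held 9965081 and 14599670 counted reads in control embryos and 13349188 and 11124411 in overexpressing embryos. Trim75 itself was higher in both libraries labelled as overexpressing, at 170 and 116 CPM (reads scaled by library size and TMM factors) in the controls and 915 and 985 CPM in the others. Its log2 fold change was 2.73 ± 0.28 (SE), with an adjusted p of 0.32 over all genes in edgeR's quasi-likelihood test and of 5.2e-14 in DESeq2. All 10 listed markers of the 2-cell embryo reached 20 reads in some library, with summed levels of 1352 to 2035 CPM. All 9 oocyte markers did so too, with sums of 2873 and 2876 CPM in control and 3447 and 3216 CPM in overexpressing libraries. Of 8 later lineage markers 5 reached 20 reads, with sums of 43.38 and 23.19 CPM in control and 56.58 and 69.63 CPM in overexpressing libraries. Of 6 sperm markers 1 had a row, at 19.87 and 0 CPM in control and 5.825 and 3.645 CPM in overexpressing libraries. Of 8 cumulus cell markers 3 reached 20 reads, with summed levels of 39.97 to 69.3 CPM. The 2 control libraries were less alike (Spearman correlation across genes 0.78) than the 2 overexpressing libraries (0.869). Control replicate 1 correlated more with overexpressing replicates 1 and 2 (0.814 and 0.801) than with control replicate 2. Control replicate 2 correlated with the same overexpressing libraries at 0.78 and 0.772. Mitochondrial-like rows held 1.35% and 1.598% of the reads of the controls and 2.13% and 4.01% of those of the overexpressing libraries, and without these rows and those of ribosomal RNA the median log2 fold change of the 37 genes was -0.55, against -0.54 with them.

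Most of the 37 genes had lower values in embryos overexpressing Trim75. The fitted log2 fold change was below 0 for 31 of 37, where 48.7% of all genes tested, and 50.4% of those at least as abundant as the lowest of the 37, lay below 0. The median was -0.54 (quartiles -0.81 and -0.16), against 0.03 over the 16801 genes tested. Both overexpressing libraries lay under both controls for 14 genes (37.8%), a pattern that 19.6% of all genes tested showed. Among the 10251 genes of at least that abundance it was 22.7%. The opposite order, with both overexpressing libraries above both controls, was seen for 2 genes, Dkc1 and Npm1, where the background was 24%. All 37 passed the filter on low counts.

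No single gene of the 37 passed the main test. After Benjamini-Hochberg adjustment of the edgeR quasi-likelihood p-values, 0 of 37 were under 0.05, as were 0 of all 16801 genes (0%). At an unadjusted p under 0.05, 8 of the 37 were lower and 0 higher, where the shares over all genes were 3.53% lower and 7.71% higher. DESeq2, with 1.73% of genes called lower and 3.78% called higher, called 3 of the 37, all lower: Polr1c, Rpf1 and Rrp1b. In whole embryos a lower share of reads cannot separate fewer transcripts from more transcripts of other genes, and fewer cells of a type and less RNA per cell cannot be told apart.

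Control replicate 2 stood above the other libraries for most of these genes. Its value was the highest of the 4 libraries for 25 of the 37 genes and the lowest for 0, while control replicate 1 was the lowest for 10. Between the 2 controls, replicate 2 was above replicate 1 for 30 genes, and by over 1.5-fold for 17. For 21 of the 37 the 2 controls were farther apart than the group means. The median absolute difference between the controls was 0.60 for the 37 (log2 CPM) and 0.74 over all genes tested (log2 of CPM + 1). Both overexpressing libraries lay under control replicate 2 for 28 genes and under control replicate 1 for 17. Without control replicate 2 the median log2 fold change was -0.20, against 0.21 over all genes tested, and 23 genes were below 0. Without control replicate 1 it was -0.69, against 0.37, and 35 genes were below 0. The share of genes with the groups apart and lower was 45.9% without control replicate 2, against 35% of all genes tested, and 75.7% without control replicate 1, against 33.4%.

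**Figure D1:**
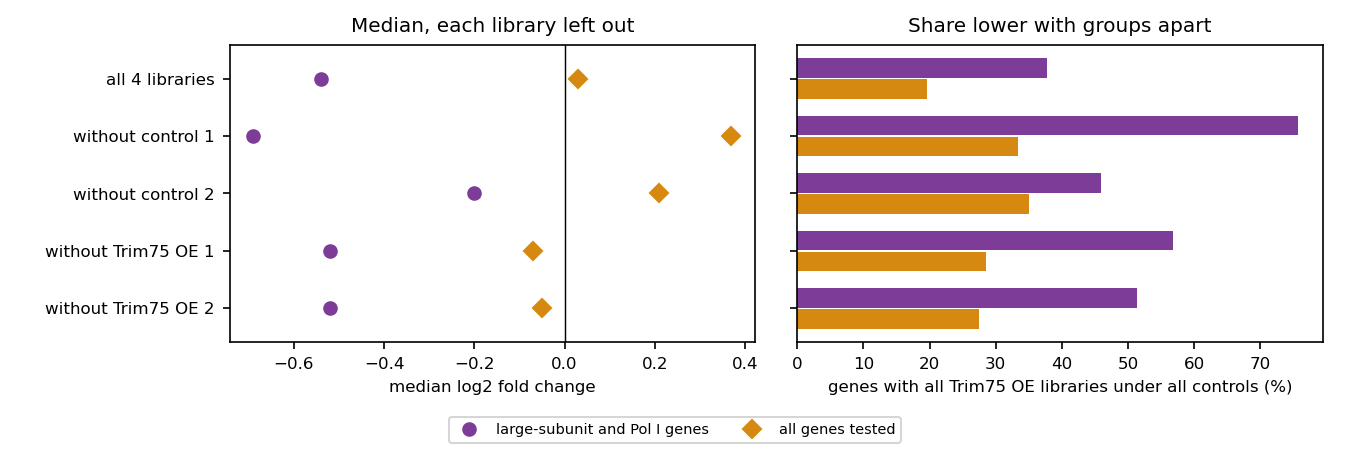
The left panel plots the median log2 fold change (Trim75 OE against control) and the right panel the percentage of genes with all overexpressing libraries under all controls, for the 37 genes and for all genes tested, with all 4 libraries and with each left out. The 37 genes stay on the lower side in every row, and their median lies between -0.69 without control 1 and -0.20 without control 2.

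Promoter sequences were read for the genes, because many of them had lower values together. A RefSeq promoter window (GRCm38.p6, from 250 bases before to 50 after the annotated start) was matched by symbol for 31 of the 37, and not for Npm1, Bop1, Rrs1, Rpf1, Gnl2 and Gnl3l. Of 6 motifs searched on both strands, CCGGAAG, a core bound by factors of the ETS family, was found in 14 of 31 windows (45.2%). It was found in 17% of the windows of tested genes and in 9.12% of all 27025 windows. Among tested genes at least as abundant as the lowest of the 37 the share was 19.2%. The windows of the small-subunit processome genes held it in 47.5%, those of other RNA polymerase I machinery in 46.7%, those of the other 60S assembly factors in 42.5% and those of the 60S ribosomal proteins in 38.2%. Among C/D snoRNP and snoRNP assembly genes it was in 2 of 7 windows (28.6%), and among Myc and its partners in 0 of 9. There were 19 matches in all, 0 of them overlapping another searched motif, and 18 lay within 100 bases before the start or after it.

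The remaining motifs were found at shares closer to those of tested genes. CACGTG, the E-box read by Myc and related factors, was in 16.1% of the windows of the 37 and 9.95% of those of tested genes. GGGCGG, the GC box, was in 61.3% and 59.7%, and TGCGCA, a core of the NRF1 site, in 9.68% and 14%. ATGGCGG, a core of the YY1 site, was in 6.45% and 7.74%, and TATAAA, the TATA box, in 12.9% and 8.02%. Median GC content was 57% in the 31 windows and 60% in those of tested genes. A match is a string of letters and shows no binding.

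Of the 14 genes lower with the groups apart, 11 had a window, and 6 of these (54.5%) held CCGGAAG or its reverse complement. Over all 31 windows, these 11 included, the share was 45.2%. Whether the motif goes with lower values was not tested. The 6 genes with a match are shown to let their contexts be compared. Letters are in lower case with each match in capitals, read 5′ to 3′ on the strand of the gene. For Polr1c and Rpf2, the latter with 3 matches, the whole window is given (RefSeq lists more than 1 window for Rpf2, and the first was used).
Polr1c, chr17:46247996-46248295, minus strand: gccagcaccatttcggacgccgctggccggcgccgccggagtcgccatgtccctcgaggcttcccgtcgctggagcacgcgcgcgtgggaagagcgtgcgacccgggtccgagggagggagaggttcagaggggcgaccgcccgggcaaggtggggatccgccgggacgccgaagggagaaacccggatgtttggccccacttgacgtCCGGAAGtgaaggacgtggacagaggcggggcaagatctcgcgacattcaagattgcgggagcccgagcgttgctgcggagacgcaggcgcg
Rpf2, chr10:40246990-40247289, minus strand: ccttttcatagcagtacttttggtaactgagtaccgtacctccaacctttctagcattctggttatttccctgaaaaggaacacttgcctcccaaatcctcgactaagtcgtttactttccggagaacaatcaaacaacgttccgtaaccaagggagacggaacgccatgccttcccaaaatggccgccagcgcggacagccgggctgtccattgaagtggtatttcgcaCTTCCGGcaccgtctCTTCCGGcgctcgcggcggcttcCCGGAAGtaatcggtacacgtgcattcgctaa
Nhp2, chr11:51619730-51619776, plus strand: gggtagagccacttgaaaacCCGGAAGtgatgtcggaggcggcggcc
Gar1, chr3:129831413-129831459, minus strand: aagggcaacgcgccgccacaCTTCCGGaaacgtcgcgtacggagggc
Polr1e, chr4:45018614-45018658, plus strand: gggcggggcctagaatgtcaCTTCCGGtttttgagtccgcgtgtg
Ppan, chr9:20888173-20888219, plus strand: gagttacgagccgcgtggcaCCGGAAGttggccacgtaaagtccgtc
In 4 of the 6 the first capital run lies 14 to 43 bases before the start (Polr1c, Rpf2, Nhp2 and Gar1). In Polr1e it lies 26 to 32 bases after the start, and in Ppan 19 to 25 bases after it.

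RNA polymerase I, the enzyme that transcribes the ribosomal RNA precursor, had lower values in overexpressing embryos for 5 of its 5 subunits on the list. For 4 of them, Polr1a, Polr1c, Polr1d and Polr1e, both overexpressing libraries lay under both controls, as they did for 19.6% of all genes tested and 22.7% of those of at least the abundance of the lowest of the 37. The median log2 fold change of the 5 was -0.92.

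Polr1a (chromosome 6, from 71909053 to 71984935, mm10), the largest, catalytic subunit, had 413 and 387 reads in control and 36 and 94 reads in overexpressing libraries. On the scaled level this was 39.6 and 26.4 CPM against 2.72 and 8.79 CPM. Both overexpressing libraries were thus far under both controls, though they differed from each other by 3.23-fold. The fitted difference was 5.74-fold (log2 fold change -2.52 ± 0.90, SE), with an unadjusted p of 0.045 and an adjusted p of 0.43 in edgeR. It ranged from -3.59 to -1.39 over the 15 alternative settings. Polr1a was also among the least abundant of the 37 per length, at 2.86 ± 0.89 FPKM (reads scaled by exon length and library size; SD, n = 2) in control embryos, which placed it above 37.2% of tested genes.

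Polr1c (chromosome 17, from 46243920 to 46248054, mm10), a subunit shared with RNA polymerase III, measured 192 and 203 CPM in control and 69.8 and 101 CPM in overexpressing libraries. The 2 controls agreed within 1.05-fold, and both overexpressing libraries were well under them, 2.31-fold lower in the fit. The log2 fold change was -1.21 ± 0.30 (SE), with adjusted p of 0.32 in edgeR and 0.031 in DESeq2. Its DESeq2 call was lost with any 1 library left out, while the edgeR log2 fold change with each library left out stayed between -1.50 and -0.99.

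Polr1d, the partner of Polr1c in both polymerases, measured 296 and 329 CPM in control and 176 and 230 CPM in overexpressing libraries. Polr1e, the counterpart of the yeast subunit A49, measured 184 and 130 CPM in control and 82.8 and 83.0 CPM in overexpressing libraries. Both overexpressing libraries lay under both controls for each gene. Log2 fold changes were -0.62 ± 0.25 for Polr1d and -0.92 ± 0.30 for Polr1e (SE), with unadjusted p of 0.062 and 0.034 and adjusted p of 0.48 and 0.39 in edgeR. Polr1b, the second-largest subunit, differed from this pattern, with 51.3 and 85.6 CPM in control and 57.3 and 65.1 CPM in overexpressing libraries. Its groups overlapped, and the log2 fold change of -0.16 turned to 0.26 without control replicate 2.

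Per exon length, the shared subunits stood above the polymerase I subunits proper. In control embryos Polr1d measured 105 ± 4.94 FPKM and Polr1c 88.9 ± 0.76 FPKM, above Polr1e at 41.4 ± 11.1, Polr1b at 12.02 ± 3.94 and Polr1a at 2.86 ± 0.89 FPKM (SD, n = 2). In overexpressing embryos the order was the same, from 64.9 ± 10.9 FPKM for Polr1d to 0.47 ± 0.34 FPKM for Polr1a. The shared subunits were not tested apart from the others. Subunits that belong to RNA polymerase III alone, a list added after the data were seen, had lower values for 8 of 10, with the groups apart for 3 lower and 1 higher, where 19.6% of all genes tested were apart and lower and 24% apart and higher. Their median log2 fold change was -0.42.

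**Figure D2:**
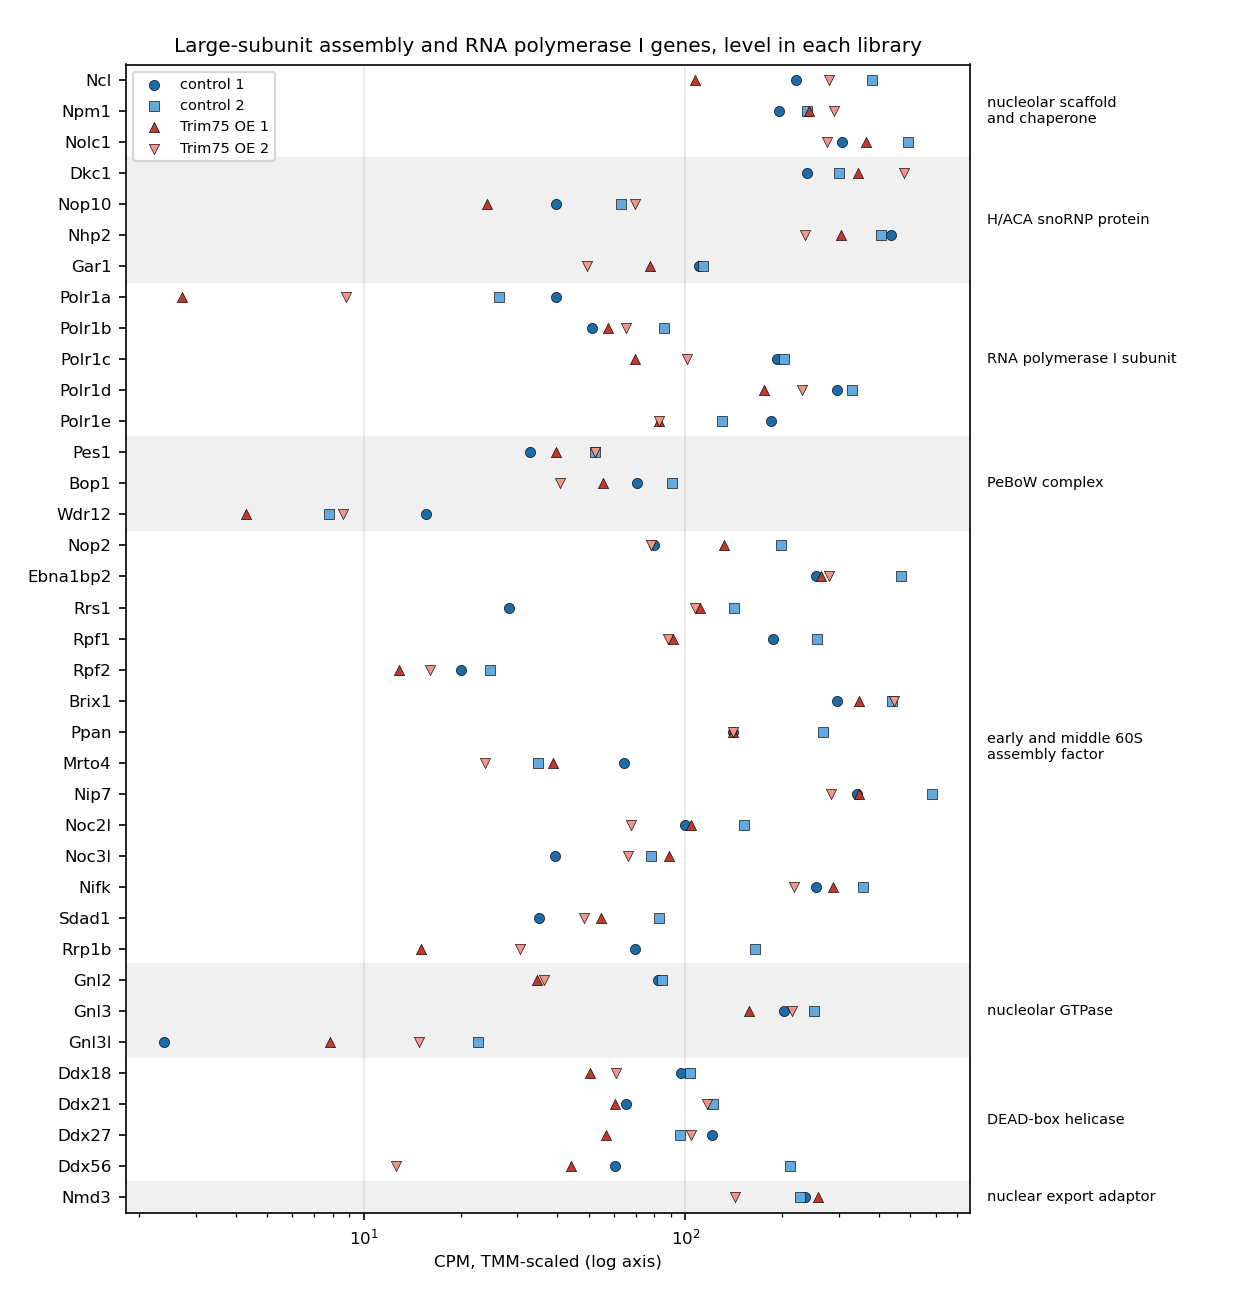
CPM scaled by TMM factors (log axis) of each of the 37 genes in each of the 4 libraries, grouped by role. Control 2 (light squares) lies farthest to the right for 25 genes, and the 2 overexpressing libraries (triangles) lie left of both controls for 14, among them Polr1a, Polr1c, Polr1d and Polr1e.

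The 4 core proteins of the H/ACA snoRNP did not move together. Nhp2, which binds the guide RNA beside the catalytic subunit, measured 434 and 406 CPM in control and 304 and 235 CPM in overexpressing libraries. Gar1, which helps release the product, measured 110 and 113 CPM in control and 77.4 and 49.5 CPM in overexpressing libraries. Both had lower values in both overexpressing libraries, with controls within 1.07-fold and 1.03-fold of each other. Log2 fold changes were -0.64 ± 0.24 for Nhp2 and -0.81 ± 0.36 for Gar1 (SE), with unadjusted p of just under 0.05 and 0.083 in edgeR and adjusted p of 0.44 and 0.54.

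Dkc1, which encodes dyskerin, the pseudouridine synthase of the complex, lay the other way. It measured 239 and 299 CPM in control and 344 and 479 CPM in overexpressing libraries, a log2 fold change of 0.61 ± 0.28 (SE) with an adjusted p of 0.55 in edgeR. Every setting left it above 0, from 0.36 to 0.81. Nop10, the smallest of the core proteins, measured 39.7 and 63 CPM in control and 24.2 and 69.7 CPM in overexpressing libraries, so the groups overlapped. Per length, Nhp2 was the most abundant of all 37 genes in both groups, at 376 ± 28.6 FPKM in control and 229.7 ± 46.4 FPKM in overexpressing embryos (SD, n = 2).

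Among the nucleolar scaffold proteins, Npm1 was the other gene with both overexpressing libraries above both controls. Npm1 encodes nucleophosmin, a histone and ribosome chaperone of the outer nucleolus. It measured 195 and 239 CPM in control and 242 and 289 CPM in overexpressing libraries, a log2 fold change of 0.29 ± 0.25 (SE) with an adjusted p of 0.83 in edgeR. The closest libraries of the 2 groups were therefore nearly level. Transcripts of 3 processed pseudogenes resembled Npm1 (92.4% to 95.1% identity), so reads may be split between them. With their reads added, the sums were 307 and 369 CPM in overexpressing libraries and at most 306 CPM in control libraries.

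Ncl, which encodes nucleolin, an RNA-binding protein of the nucleolus, measured 221 and 381 CPM in control and 107 and 279 CPM in overexpressing libraries. Nolc1, a chaperone that shuttles with snoRNPs, measured 307 and 491 CPM in control and 363 and 275 CPM in overexpressing libraries. The groups overlapped for both genes, and the log2 fold change of Nolc1, -0.32, turned to 0.05 without control replicate 2.

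Pes1, Bop1 and Wdr12 form the PeBoW complex and act together in cutting the precursor toward 28S ribosomal RNA. Only Bop1 had its groups apart and lower, as 19.6% of all genes tested did. The 3 genes were not tested against each other. Bop1 measured 70.7 and 90.6 CPM in control and 55.4 and 40.6 CPM in overexpressing libraries, so its groups were apart (log2 fold change -0.75 ± 0.38, SE, unadjusted p of 0.12 and adjusted p of 0.61 in edgeR). Pes1 measured 32.8 and 52.4 CPM in control and 39.6 and 52.2 CPM in overexpressing libraries, with no gap between the groups. One processed pseudogene resembled Pes1 at 95.5% identity, with 24.7 and 41.1 CPM in control and 23.7 and 34.3 CPM in overexpressing libraries. Wdr12 was the least abundant of the 37 per length in control embryos, at 1.01 ± 0.51 FPKM against 0.52 ± 0.24 FPKM (SD, n = 2). Its reads numbered 163 and 114 in control and 57 and 92 in overexpressing libraries, and the groups overlapped after scaling.

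Among the 14 early and middle assembly factors of the 60S subunit, 11 had values below 0, with the groups apart for 4, all lower: Rpf1, Rpf2, Ppan and Rrp1b. That share, 28.6%, is near the 22.7% of genes of at least the abundance of the lowest of the 37. Their median log2 fold change was -0.48. At an unadjusted p under 0.05 in edgeR, 2 of them were lower, Rpf1 and Rrp1b, as were 3.53% of all genes tested.

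Rpf1, a protein with a Brix domain that binds the pre-60S particle, measured 187 and 256 CPM in control and 91.5 and 88.2 CPM in overexpressing libraries. The overexpressing libraries agreed within 1.04-fold, and the groups were 2.47-fold apart in the fit. The log2 fold change of -1.30 ± 0.28 (SE) had an unadjusted p of 0.0081 and adjusted p of 0.32 in edgeR, the lowest of the 37 in that test, and 0.013 in DESeq2. In DESeq2 the call was kept without control replicate 1 and lost with any other library left out.

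Rrp1b, a counterpart of yeast Rrp1 that also guides protein phosphatase 1 to the nucleolus, had 725 and 2412 reads in control and 200 and 327 reads in overexpressing libraries. The scaled levels were 69.6 and 165 CPM against 15.1 and 30.6 CPM, so every overexpressing library was far under every control although the controls differed by 2.36-fold. The log2 fold change was -2.36 ± 0.65 (SE), with adjusted p of 0.33 in edgeR and 0.014 in DESeq2, and it ranged from -2.95 to -1.61 over the settings. Without control replicate 2, or without overexpressing replicate 1, DESeq2 did not call it. The exons of Rrp1b share 54 bases with Hsf2bp on the opposite strand, and whether strand was used in counting was not given in the sources used here.

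Rpf2, which in yeast brings the 5S ribonucleoprotein to the particle together with Rrs1, measured 20 and 24.7 CPM in control and 12.9 and 16.1 CPM in overexpressing libraries. Its groups were apart, with a log2 fold change of -0.63 ± 0.66 (SE) that was smaller than its error. Rrs1, the partner, showed no such order, at 28.2 and 142 CPM in control and 111 and 107 CPM in overexpressing libraries. The 2 controls of Rrs1 differed by 5.03-fold, more than any gap between the groups, and its log2 fold change of 0.36 turned to -0.39 without control replicate 1. Without control replicate 2 it reached 1.95, and Rrs1 was then the 1 gene of the 37 that DESeq2 called.

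Ppan, another Brix-domain protein, met the definition of separate groups only barely, at 140.0 and 267 CPM in control and 140.0 CPM in each overexpressing library. Control replicate 1 was above them by under 1 CPM. Without control replicate 2 its log2 fold change was -0.01. Nifk, a partner of the proliferation antigen Ki-67, was the most abundant of these factors per length in control embryos, and measured 254 and 355 CPM in control and 288 and 217 CPM in overexpressing libraries. Sdad1, the counterpart of yeast Sda1, was the least abundant of them per length in control embryos, and measured 35.1 and 82.7 CPM in control and 54.8 and 48.2 CPM in overexpressing libraries. The groups overlapped for Nifk and Sdad1.

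The other 8 factors of this role also had overlapping groups. Log2 fold changes were -0.66 for Mrto4, a relative of the stalk protein P0, -0.56 for Noc2l, -0.55 for Nip7, -0.42 for Ebna1bp2, and -0.40 for Nop2, a methyltransferase of 28S ribosomal RNA, each with a SE between 0.34 and 0.57. They were 0.40 ± 0.48 for Noc3l, 0.36 ± 0.80 for Rrs1 and 0.11 ± 0.30 for Brix1 (SE). Adjusted p in edgeR was between 0.71 and 0.97 for these 8 genes. The transcript of Mrto4 resembled that of the processed pseudogene Mrto4-ps1 at 98.3% identity, and their summed level was 93.9 and 59.2 CPM in control and 61.9 and 39.6 CPM in overexpressing libraries.

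The 3 nucleolar GTPases of one family differed in how closely their libraries agreed. Gnl2, whose yeast counterpart Nog2 acts late in the nucleus before export, measured 82.2 and 84.8 CPM in control and 34.6 and 36.2 CPM in overexpressing libraries. Libraries of a group agreed within 1.03-fold and 1.04-fold, while the groups were 2.36-fold apart. The log2 fold change was -1.24 ± 0.35 (SE), with an unadjusted p of 0.02, adjusted p of 0.33 in edgeR and 0.059 in DESeq2, and it stayed between -1.31 and -1.21 in all 15 alternative settings. Its exons share 43 bases with Dnali1 on the opposite strand.

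Gnl3, which encodes nucleostemin, measured 203 and 251 CPM in control and 158 and 215 CPM in overexpressing libraries. Gnl3l measured 2.40 and 22.6 CPM in control and 7.87 and 14.9 CPM in overexpressing libraries, with 25 reads in control replicate 1 and 331 in control replicate 2. Neither gene had its groups apart, and for Gnl3l the 2 controls differed by 9.41-fold, the widest gap within a group among the 37.

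Of the 4 DEAD-box helicases, Ddx18 and Ddx56 had their groups apart and lower, as 19.6% of all genes tested did. The 4 genes were not tested as a set. Ddx18, the counterpart of yeast Has1, measured 97.1 and 103 CPM in control and 50.5 and 60.8 CPM in overexpressing libraries, a log2 fold change of -0.85 ± 0.32 (SE) with an unadjusted p of just under 0.05 and an adjusted p of 0.44 in edgeR. Its transcript resembles those of 3 processed pseudogenes, and the closest, Gm16433 on chromosome 6, is 99.3% identical over 1984 bases. Gm16433 was listed at 205 and 195 CPM in control and 94.2 and 139 CPM in overexpressing libraries, above Ddx18 itself, so the source of the reads of either is uncertain. The sum of Ddx18 and the 3 copies was 307 and 302 CPM in control and 146 and 204 CPM in overexpressing libraries, and the groups were apart in the sum as well.

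Ddx56, the counterpart of yeast Dbp9, had 630 and 3109 reads in control and 583 and 135 reads in overexpressing libraries, or 60.5 and 212 CPM against 44.1 and 12.6 CPM. The fitted fold was large (log2 fold change -2.26 ± 0.93, SE), but the libraries of each group were about 3.5-fold apart, and the unadjusted p in edgeR was 0.066 and the adjusted p 0.5. Ddx21, which binds both ribosomal RNA precursor and snoRNAs, measured 65.3 and 122 CPM in control and 60.5 and 117 CPM in overexpressing libraries, nearly the same pair of values in each group. Ddx27 measured 121 and 96.4 CPM in control and 56.7 and 104 CPM in overexpressing libraries, with the groups overlapping.

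Nmd3, the adaptor through which the export receptor Xpo1 carries the 60S subunit out of the nucleus, measured 236 and 227 CPM in control and 258 and 143 CPM in overexpressing libraries. The 2 overexpressing libraries lay on either side of the controls, and the log2 fold change was -0.21 ± 0.36 (SE), with an adjusted p of 0.95 in edgeR.

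**Figure D3:**
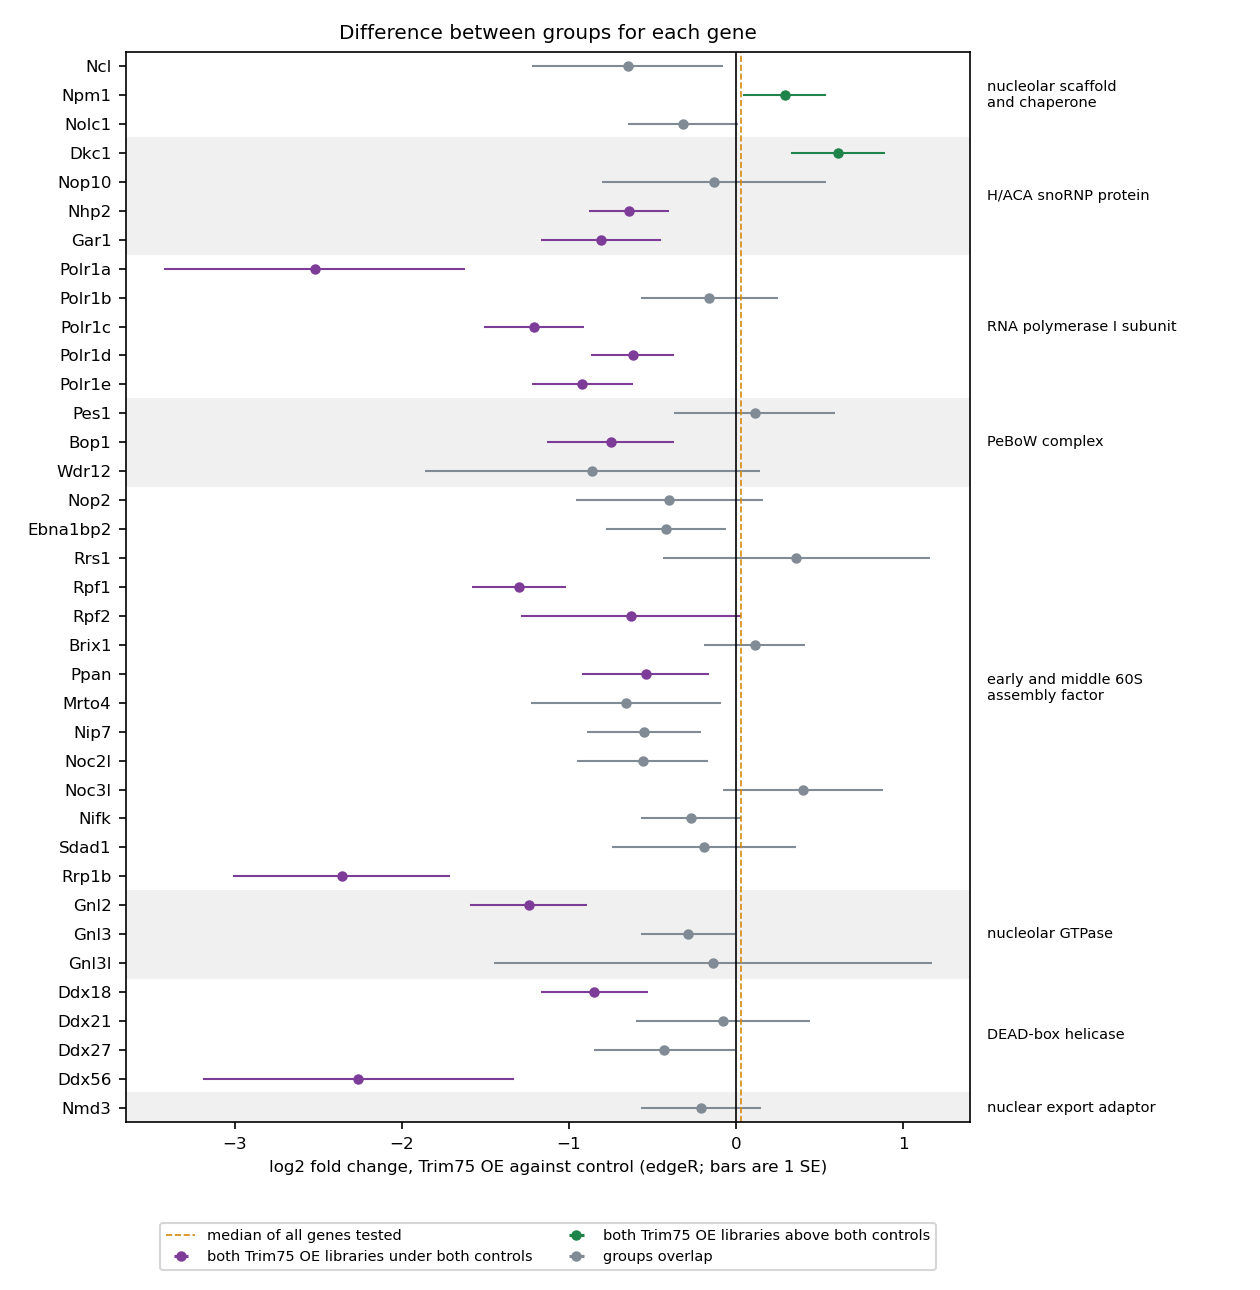
Log2 fold change (Trim75 OE against control, edgeR) with 1 SE for each of the 37 genes, coloured by whether the libraries of the 2 groups overlap; the dashed line is the median of all genes tested. Polr1a, Rrp1b and Ddx56 lie farthest to the left, and Dkc1 and Npm1 are the 2 genes with both overexpressing libraries above both controls.

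Most of the 37 genes were abundant in the embryo. In control embryos 34 of 37 had an FPKM above the median of tested genes, 28 were above the percentile 75 and 13 above the percentile 90 of tested genes. The median FPKM of the 37 was 26.2 and 41.3 in the control libraries, where that of tested genes was 5.3 and 4.61, and 21.9 and 21.7 in the overexpressing libraries, where that of tested genes was 4.98 and 4.89. Together the 37 took 0.544% and 0.731% of all reads in control libraries and 0.461% and 0.467% in overexpressing libraries. The share of control replicate 2 stood apart from the other 3.

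Genes inside genes are one feature that some of the 37 share. In the annotation (GENCODE M21, GRCm38) 4 of them, Ncl, Dkc1, Ppan and Gnl3, hold 9 snoRNA genes on their own strand. The 37 genes lie on 15 chromosomes, Dkc1 and Gnl3l being the 2 on the X chromosome. Exons of 11 overlap a gene on the opposite strand.

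Most of the other ribosome genes listed also had lower values. Of 46 other 60S assembly factors, 33 were below 0 and 19 had the groups apart and lower (41.3%, against 19.6% of all genes tested), with a median log2 fold change of -0.44. Rsl24d1, a placeholder for a ribosomal protein in the pre-60S particle, measured 479 and 622 CPM in control and 215 and 229 CPM in overexpressing libraries. Nol9, a polynucleotide kinase that acts on the spacer of the precursor, measured 450.0 and 457 CPM in control and 264 and 158 CPM in overexpressing libraries. Each kept a gap of over 1.5-fold between the nearest libraries of the 2 groups.

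Further machinery of RNA polymerase I, including its initiation factors, counted 16 genes, of which 14 were below 0 and 10 had the groups apart and lower (62.5%), with a median of -0.55. Taf1a, a subunit of the promoter selectivity factor, measured 167 and 211 CPM in control and 103 CPM in each overexpressing library. Polr2l, a small subunit common to all 3 nuclear RNA polymerases, measured 76.1 and 79.2 CPM in control and 23.5 and 35.3 CPM in overexpressing libraries. For C/D snoRNP and snoRNP assembly genes, 8 of 10 were below 0 and 5 lower with the groups apart (median -0.49). Tcof1, which encodes treacle, a nucleolar partner of RNA polymerase I, measured 403 and 445 CPM in control and 138 and 208 CPM in overexpressing libraries, and Nop58 had a log2 fold change of -1.13 ± 0.32 (SE).

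Small-subunit processome genes were below 0 for 36 of 46, with 22 lower and apart (47.8%) and a median of -0.56, and Rrp9 and Wdr36 had their lowest p. Ribosomal proteins of the 60S subunit were below 0 for 42 of 47, with 24 lower and apart (51.1%) and a median of -0.54, and Rpl41 and Rplp1 had their lowest p. In edgeR 0 genes of these 5 lists passed the adjusted threshold. At an unadjusted p under 0.05 in edgeR, where 3.53% of all genes tested were lower, 6 were lower among other 60S factors and 3 in RNA polymerase I machinery. The C/D snoRNP and snoRNP assembly genes had 2 such genes, the processome 6 and the ribosomal proteins 6. DESeq2 called 1, 1, 1, 4 and 3 genes of these lists, in that order and all lower, and it called 1.73% of all genes lower. The share of the 37 genes with the groups apart and lower, 37.8%, was under that of each of these 5 lists, and the differences between the lists were not tested. The list of Myc and its partners, known regulators of ribosome genes, had 9 tested members, of which 4 were below 0 and 3 lower with the groups apart (33.3%), with a median of 0.07. Myc measured 16.3 and 38.4 CPM in control and 6.58 and 8.97 CPM in overexpressing libraries (log2 fold change -1.81 ± 0.81, SE, adjusted p of 0.54 in edgeR), whereas Max overlapped between the groups (0.48 ± 0.37).

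**Figure D4:**
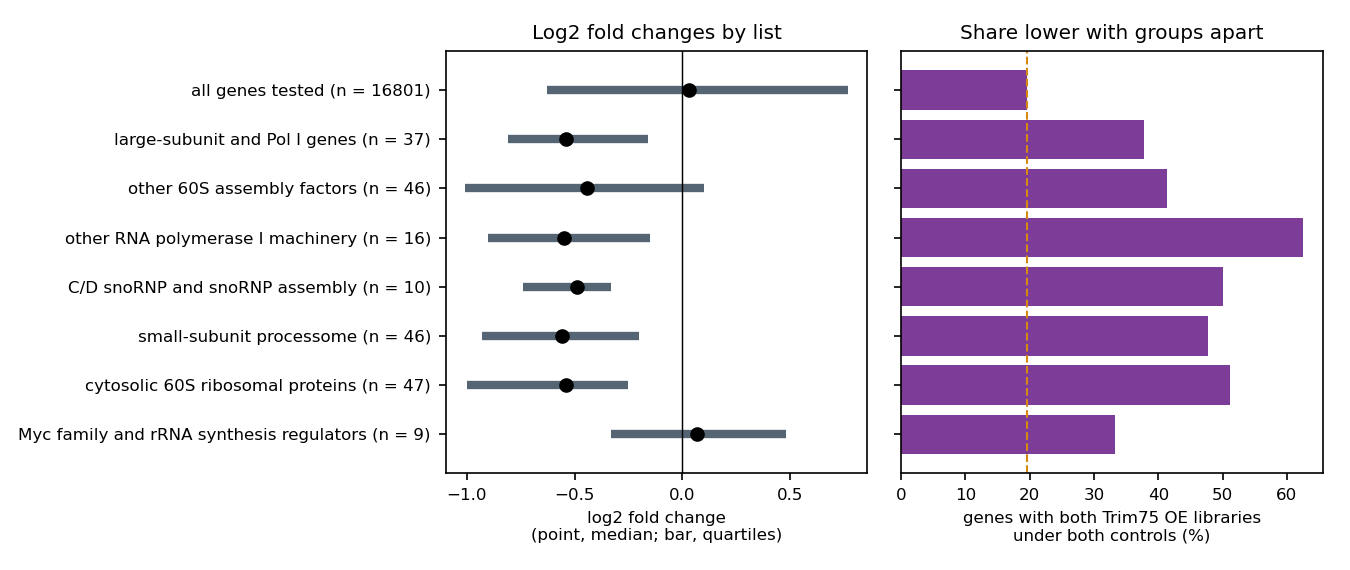
The left panel gives the median (point) and quartiles (bar) of the log2 fold change, Trim75 OE against control, for the 37 genes, 6 other lists and all genes tested; the right panel gives the percentage of each list with both overexpressing libraries under both controls, the dashed line marking all genes tested at 19.6%. The 37 genes stand at 37.8%, the 5 other ribosome lists between 41.3% and 62.5%.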

How the data were processed

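The libraries were made with the TruePrep DNA Library Prep Kit V2, per the labels' protocols. FastQC, Trim Galore, HISAT2, featureCounts and the mm10 genome are named in the submitters' processing notes, while their versions, the annotation release, and whether strand or multi-mapped reads were used in counting were not given in the sources used here. The authors deposited raw read counts, whole numbers per gene without normalization. The FPKM values deposited by the authors are counts scaled by exon length and library size, per the file headers. For 36 of the 37 genes the length they imply matched GENCODE M21 (GRCm38) within 0.1%, Noc2l being the exception. Levels of different genes were compared by FPKM, with 2 exceptions. Genes at least as abundant as the lowest of the 37 were picked by mean CPM, and Gm16433 was set against Ddx18 in CPM.

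The main test of the counts used edgeR (4.0.16) under R (4.3.3): filterByExpr, TMM factors, glmQLFit and glmQLFTest on the group over all genes, with Benjamini-Hochberg adjustment. The SE of a log2 fold change is its size divided by the root of the F statistic. DESeq2 (1.42.0), limma (3.58.1) voom and limma on log2(FPKM + 1) or log2(FPKM + 0.1) were alternatives, as were other scaling factors and filters, a replicate block, each library left out, and removal of 16 mitochondrial-like rows and 5 ribosomal RNA rows. Near-identical transcripts were found with blastn (2.17.0) at 90% identity over at least 50% of the transcript. Python (3.11.15) and matplotlib (3.10.9) made the figures. The fit was tested on simulated counts. Depth was 9965081 to 14599670 reads per library, with no molecular identifiers described.

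The 37 genes, the other lists and the motifs were chosen with earlier results of these data known. Every one of the 37 is named. Values in each library are given for those with the groups apart or an unadjusted p under 0.05, and for the most and least abundant by FPKM of each role. Values of Polr1b, Pes1, Rrs1 and Ddx27 were added after they had been seen. In each other list, the 2 genes of lowest p are named. The single-cell data that the series' design text mentions were not analysed here.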

Additional observations from a re-analysis of the deposited data

How the results depend on the processing

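Across the 15 alternative settings 24 of the 37 genes kept the sign of their log2 fold change, 22 of them lower and 2 (Dkc1 and Npm1) higher. With each library left out in turn, the median log2 fold change of the 37 ran from -0.69 to -0.20, the number lower with the groups apart from 17 to 28, and the number lower at an unadjusted p under 0.05 from 1 to 8. Groups are apart more often when 1 of them holds 1 library, so 17 to 28 cannot be set against the 14 with all libraries. Of all genes tested, 27.5% to 35% were then lower with the groups apart, against 19.6% with all libraries. For the 37 these shares were 45.9% to 75.7%, against 37.8%. Calls that DESeq2 lost when a library was left out were not traced to a cause, which was not tested. Leaving out a library also changes how many genes are tested and leaves a group with 1 library, assumed to vary like the other group. DESeq2 called 885 genes, 3 of the 37, and Trim75 (2.73, adjusted p 5.2e-14). DESeq2 with each library left out, added after the data were seen, called 2379 genes without control replicate 1 (3 of the 37: Ddx56, Rpf1 and Rrp1b), 1127 without control replicate 2 (1, Rrs1), 180 without overexpressing replicate 1 (1, Ddx56) and 130 without overexpressing replicate 2 (1, Rrp1b). Polr1c, Rpf1 and Rrp1b passed in DESeq2 with all libraries at -1.22, -1.31 and -2.37. In edgeR 0 of 37 were called in every setting, and limma voom called 0 as well, with 2169 of all genes at an unadjusted p under 0.05, against 1888 in edgeR.

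Same-numbered libraries did not deviate together (correlation of deviations 0.0126 over 16801 genes), so the numbers were not taken to pair them. With the replicate number as a block in edgeR, 4 of the 37 were lower at an unadjusted p under 0.05. The share over all genes tested was 2.35%. Gnl3l stood at 0.54 with this block. Gnl3l also turned in limma voom (0.24), log2(FPKM + 1) (0.11) and log2(FPKM + 0.1) (0.40).

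Leaving out each library in turn also turned the sign of 13 genes. Without control replicate 1, Pes1 stood at -0.20, Rrs1 at -0.39, Brix1 at -0.16 and Noc3l at -0.02, and without control replicate 2 they stood at 0.48, 1.95, 0.42 and 0.98. Without control replicate 2, Nolc1 stood at 0.05, Polr1b at 0.26, Nop2 at 0.40, Ebna1bp2 at 0.09, Sdad1 at 0.55, Gnl3l at 2.24, Nop10 at 0.24 and Ddx21 at 0.44, and without control replicate 1 the first 6 stood at -0.63, -0.49, -0.92, -0.80, -0.69 and -1. Without overexpressing replicate 1, Nop10 stood at 0.41, Gnl3l at 0.22, Ddx21 at 0.29 and Nmd3 at -0.72. Without overexpressing replicate 2, they stood at -1.09 for Nop10, -0.63 for Ddx21 and 0.16 for Nmd3, with Pes1 at -0.10 and Brix1 at -0.08. Leaving out the 5 genes with near-identical copies gave 13 of 32 lower with the groups apart and a median of -0.55. That share was 40.6%, against 19.6% of all genes tested. With 2 libraries a group and a biological coefficient of variation of 0.91, small differences were not detectable, and large ones also missed edgeR's adjusted threshold. Trim75 itself, 6.63-fold higher, had an adjusted p of 0.32 in edgeR, and Polr1a, 5.74-fold lower, one of 0.43.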
